A study of Mustela putorius furo and Mus musculus with 4 samples.

Results

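The SST LHX6 interneurons of the E39 ferret cortex were chosen cell by cell, by their UMIs (unique molecular identifiers, which count each captured transcript once). A cell was a member if it had at least 750 detected genes, a UMI in at least 3 of the 8 genes LHX6, SST, NPY, NXPH1, MAF, ERBB4, GAD1 and GAD2, at least 1 UMI of LHX6 or SST, and 0 UMIs of ADARB2. There were 708 members among 23241 ferret cells with at least 750 genes, or 3.05% (2.83 to 3.28%, exact Clopper-Pearson 95% interval). The whole series held 41602 cells, 23482 of them from ferret and 18120 from mouse.

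The study sequenced single cells of the developing cortex on a droplet platform to compare progenitor cells between species and between mouse genotypes. The ferret cells came from wild type cortex of 1 embryo at embryonic day 39, taken as both hemispheres and dissociated with papain, with no sort. The 2 labelled ferret samples shared 1 table, whose barcodes carried 1 of 2 suffixes that could not be tied to a sample, so the cells were kept as barcode set 1 and barcode set 2. The mouse cells came from E18 cortex of embryos labelled wild type (strain CD1), which the study describes as Smo F/F littermates, and of Smo CKO embryos (hGFAP-Cre;Smo F/F), in which a human GFAP promoter drives Cre in radial glia. They were sorted after a dye injection into the lateral ventricle at E17. With 1 ferret embryo no test between samples existed, and all intervals given here cover counting error only.

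Cortical interneurons are inhibitory neurons that are not born in the dorsal cortex but in the ganglionic eminences of the ventral forebrain, from which they migrate into the cortex. Cells from the medial ganglionic eminence (MGE) keep the transcription factor LHX6 and become mainly somatostatin (SST) and parvalbumin (PVALB) interneurons, while cells from the caudal ganglionic eminence (CGE) express ADARB2, NR2F2 and PROX1 and become VIP, LAMP5 and related interneurons. Both classes depend on DLX transcription factors and on GABA synthesis by GAD1 and GAD2.

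The label was checked against genes that the rule did not use. A UMI of at least 1 of DLX1, DLX2, DLX5 and DLX6, the transcription factors of forebrain GABAergic neurons, was found in 71.3% of members (67.8 to 74.6%). SOX6, a transcription factor downstream of LHX6, had a UMI in 78.8% of members. However, a UMI of NEUROD2 or NEUROD6, which are transcription factors of cortical pyramidal neurons, was found in 208 members, or 29.4% (26.0 to 32.9%). These cells were spread unevenly, with 70 of the 126 members of barcode set 1 and 138 of the 582 members of barcode set 2. They had a median of 3094 UMIs, against 2772 in the other 500 members. Scrublet, a doublet caller, marked under 0.5% of cells and none of the members, which was taken to mean that its threshold had not worked. Its median score was 0.051 in members with NEUROD2 or NEUROD6, 0.009 in the other members and 0.050 in pyramidal neurons. Whether these members were doublets, or held free RNA of other cells, was not tested, and the counts of called genes are given with and without them. Of 57 named genes called against ADARB2 interneurons 3 (CXCR4, NRG1 and NEUROD2 itself) had a ratio under 2-fold over both sets together without these cells. Of 65 called against pyramidal neurons 1 (CLDN5) did. These counts did not ask for the fold in each barcode set, as a call does. With that, 92 of 116 higher and 133 of 167 lower calls against ADARB2 interneurons were shared. Against pyramidal neurons 192 of 212 and 42 of 45 were.

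The share of cells with pyramidal genes moved with the number of rule genes detected. Among the 107 members with exactly 3 of the 8 genes, just inside the rule, 26.2% had a DLX UMI, 32.7% had SOX6 and 65.4% had NEUROD2 or NEUROD6. The 341 cells with exactly 2 of the genes, just outside the rule, had these in 6.45%, 18.5% and 78.0%. Among the 205 members with 5 genes the shares were 78.5%, 86.8% and 22.4%, and in the 69 members with 7 genes they were 85.5%, 97.1% and 17.4%. The cells at the border of the rule thus carried few DLX UMIs and many pyramidal UMIs, and the cells with more rule genes carried the reverse. The median depth was 2735, 2159, 2736, 2949, 3368 and 3156 UMIs in members with 3, 4, 5, 6, 7 and 8 rule genes. These shares were not taken at equal depth, and the part of depth in them was not tested.

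**Figure D1:**
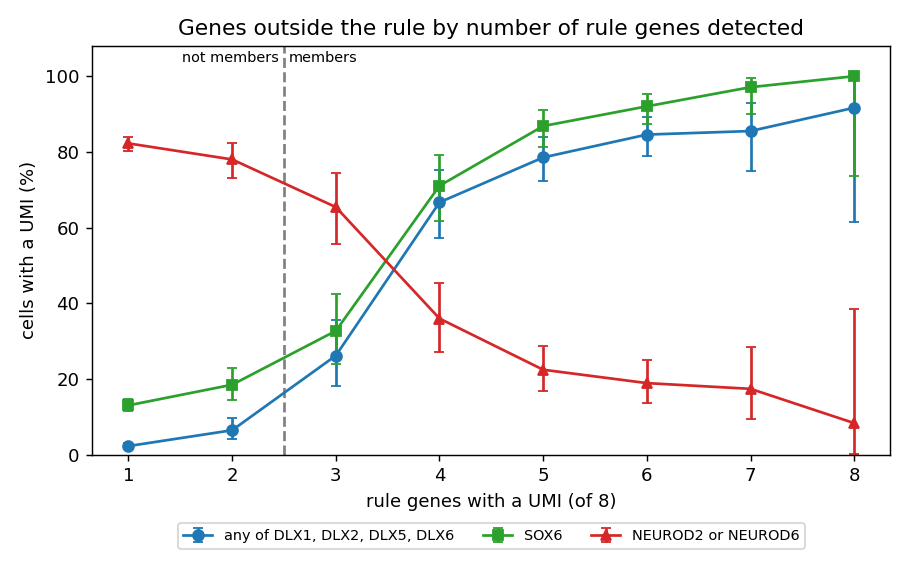
Share of cells (y axis, percent, with exact 95% Clopper-Pearson intervals as bars) that had a UMI of any of 4 DLX genes, of SOX6, or of NEUROD2 or NEUROD6, by the number of the 8 rule genes detected in the cell (x axis). The dashed line marks the rule, with ferret cells that had an LHX6 or SST UMI and no ADARB2 UMI on both sides, and the share with DLX was 6.45% at 2 genes, 26.2% at 3 genes and 66.7% at 4 genes.

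The barcode sets differed in how many members they held. Barcode set 1 had 126 members among 10187 cells (1.24%, 1.03 to 1.47%), and barcode set 2 had 582 among 13054 (4.46%, 4.11 to 4.83%). Among cells with at least 2000 UMIs the shares were 1.19% and 4.00%. ADARB2 interneurons, defined as cells with an ADARB2 UMI, at least 2 of ERBB4, GAD1 and GAD2, and no LHX6 or SST, were also fewer in barcode set 1, at 0.510% against 3.22%. Members and ADARB2 interneurons were thus both scarcer in the same set, and since the sets could not be tied to a hemisphere, a piece of tissue or a library, this difference cannot be told apart from one of preparation. The sets shared 38 barcodes, none of them in a member.

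The genes of the rule chose the cells, so their levels are a description. ERBB4, the neuregulin receptor of migrating interneurons, had a UMI in 94.8% of members, and NXPH1, a secreted neurexin ligand, in 90.3%. MAF, a transcription factor of MGE-derived interneurons, had a UMI in 79.0% and SST in 78.5%. LHX6 had a UMI in 57.9% of members and NPY, a peptide of many SST interneurons, in 25.7%. The GABA synthesis genes were found less widely, with GAD1 in 44.8% and GAD2 in 35.7% of members, and 281 members (39.7%) had neither. Per barcode set, LHX6 was at 154 and 290.3 CPM (the UMIs of a gene summed over the cells, scaled to 1e6 UMIs in all) and NXPH1 at 909 and 3260.0 CPM in sets 1 and 2, whereas NPY was at 1337 and 929 CPM. The levels of LHX6 and NXPH1 were thus lower, and that of NPY higher, in the members of barcode set 1.

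Members fell into 3 kinds by their anchor genes. Both LHX6 and SST were found in 258 members (36.4%), LHX6 without SST in 152 (21.5%) and SST without LHX6 in 298 (42.1%). The last kind was mixed. Where SST had at least 2 UMIs, in 208 cells, 71.2% (64.5 to 77.2%) had a DLX UMI and 27.9% (21.9 to 34.5%) had NEUROD2 or NEUROD6, close to the 78.7% and 24.0% of members with both anchors. Where SST had only 1 UMI, in 90 cells, 34.4% (24.7 to 45.2%) had a DLX UMI and 53.3% (42.5 to 63.9%) had NEUROD2 or NEUROD6. For comparison, among 12365 cells that met the marker count for pyramidal neurons whether or not they had SST or LHX6, 9.07% had an SST UMI and 0.687% an LHX6 UMI. An SST UMI was therefore common in cells of another type, while an LHX6 UMI was rare there.

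SST was unevenly spread over the members. The median member had 3 SST UMIs, with quartiles of 1 and 12, and the highest had 222. The 102 members with at least 20 SST UMIs were 14.4% of members and held 63.1% of their SST UMIs. NPY was more uneven still in its reach, since 526 members had no NPY UMI and 74 members with at least 5 held 91.4% of NPY UMIs. LHX6 never exceeded 5 UMIs in a cell. The transcription factor was thus near the limit of detection in single cells, while SST ranged from 0 to 222 and NPY from 0 to 295 UMIs.

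**Figure D2:**
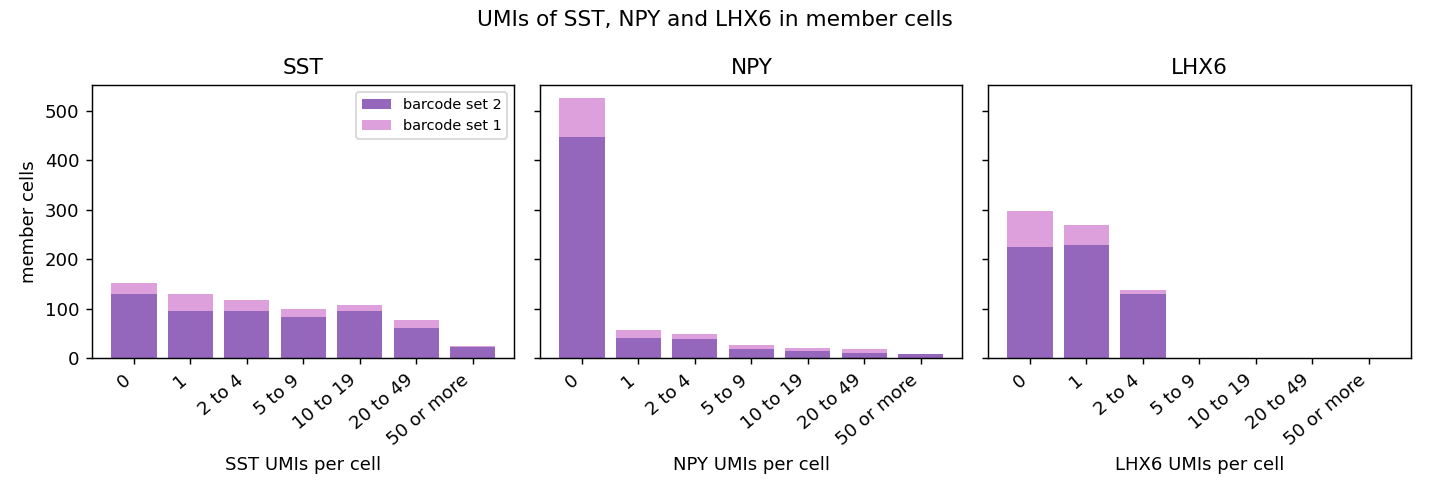
Number of member cells (y axis, both barcode sets stacked) by UMIs of SST, NPY or LHX6 in the cell (x axis, in classes). LHX6 was at 0 or 1 UMI in most members, NPY was at 0 in 526 members, and SST had at least 20 UMIs in 102 members.

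Members were next compared with the 472 ADARB2 interneurons, which asked what set the LHX6 class apart from the other cortical interneurons. The MGE transcription factors SOX6 and SATB1 and the synaptic protein gene ELFN1 were higher in members, while the CGE factors NR2F2, PROX1 and SP8 were lower. Of 8305 genes with at least 50 UMIs in both classes together, 116 (1.4%) were called higher, meaning at least 2-fold in the same direction overall and in each barcode set after 10 CPM were added. A further 167 genes (2.01%) were called lower, and the median log2 ratio over all genes compared was -0.02. Genes of either rule were left out of these counts. Without the cells that had NEUROD2 or NEUROD6 the counts were 132 and 165, and 92 and 133 of the original calls were shared.

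Of the 10 genes of the MGE list, 6 had enough UMIs to be compared, 4 of them were higher, 1 was lower and the median log2 ratio was 2.12. SOX6 was at 381 and 1241 CPM in members of sets 1 and 2 and at 60.6 and 65.3 CPM in ADARB2 interneurons. The lower member value lay far above both ADARB2 values, and the ratio of summed CPM was 16.7 (13.5 to 20.9, exact conditional binomial interval). SATB1, a chromatin organizer needed by SST interneurons, was at 191 and 374 CPM against 77.9 and 57.2 CPM, a ratio of 5.78 (4.58 to 7.38). ELFN1, which shapes the synapses that SST interneurons receive, was at 48.9 and 97.5 CPM against 17.3 and 16.3 CPM. In each of these 3 genes the levels in members and ADARB2 interneurons did not overlap between the sets, but each had already been called for a 2-fold difference within each set. How many of the 8305 genes compared had levels without overlap was not counted. SOX6 did not mark interneurons alone, since radial glia, the cortical stem cells, had it at 679 CPM.

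None of the remaining MGE genes was called higher. PLS3, an actin-bundling protein, was at 34.2 and 56.1 CPM in members and at 416 and 296 CPM in ADARB2 interneurons, and was called lower. ZEB2, a factor that directs MGE cells to the cortex, was at 662 and 999 CPM against 1091 and 1139 CPM and was not called. NKX2-1, the factor that specifies the MGE and is switched off in cortical interneurons, had a UMI in 0.847% of members. LHX8, a factor of MGE-derived striatal and cholinergic neurons, had 0 UMIs, which allows a share of up to 0.424% of members with a UMI and sets no limit on members that express it. CRABP1 and RBP4 had too few UMIs for this comparison.

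The CGE list ran in the other direction with 1 exception. Of 7 genes compared 5 were lower, 1 was higher and the median log2 ratio was -3.16. NR2F2, a nuclear receptor of CGE cells, was at 22.0 and 8.71 CPM in members and at 346 and 352 CPM in ADARB2 interneurons, 31.6-fold higher in the latter (21.1 to 49.3). PROX1, which sustains CGE interneuron maturation, was at 4.89 and 2.18 CPM against 303 and 229 CPM. SP8, another CGE factor, was at 2.44 and 2.18 CPM against 104 and 98.8 CPM. These 3 factors were near the level of a few UMIs in members and common in ADARB2 interneurons. CNR1, the cannabinoid receptor, was at 31.8 and 38.1 CPM against 182 and 247 CPM, and the peptide gene CCK at 22.0 and 18.5 CPM against 675 and 372 CPM. The exception was RELN, which encodes the secreted glycoprotein reelin. It was at 213 and 894 CPM in members and at 60.6 and 92.3 CPM in ADARB2 interneurons, a ratio of 8.60 (7.14 to 10.4). HTR3A had 0 UMIs in members, and VIP was not analysed here.

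The genes that all cortical interneurons share were not higher in members than in ADARB2 interneurons. Of 10 genes, 2 were lower, 8 were not called and the median log2 ratio was -0.40. DLX1 was at 125 and 257 CPM against 606 and 749.6 CPM, and was 3.17-fold (2.85 to 3.53) higher in ADARB2 interneurons. NPAS1, a transcription factor, was at 53.8 and 106 CPM against 407 and 431 CPM. The rule for ADARB2 interneurons needed at least 2 of ERBB4, GAD1 and GAD2, which the members' rule did not, and 72.2% of members but 91.9% of ADARB2 interneurons had UMIs of at least 2 genes of this list. The part of the unequal rules in the difference was not tested. Without the cells that had NEUROD2 or NEUROD6 the median log2 ratio was -0.13 and DLX1 was at -1.43, against -1.62 with them.

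The 15 genes with the largest ratios included several that are in none of the lists. PTPRM, a receptor tyrosine phosphatase of cell contacts, was at 115 and 474 CPM in members and at 0 and 10.6 CPM in ADARB2 interneurons, a ratio of 42.1 (24.5 to 79.4). NXPH2, a relative of NXPH1 that is in the adhesion and synapse list, was at 171 and 506 CPM against 0 and 23.7 CPM. OLFM3, an olfactomedin, was at 386 and 738 CPM against 8.66 and 42.5 CPM. Each of these genes was rare in ADARB2 interneurons, with a UMI in 2.12%, 4.66% and 6.14% of them, against 41.9%, 64.8% and 57.8% of members. BRINP3 was at 633 and 1668 CPM against 26.0 and 136 CPM. NELL1 and LHFPL3 had ratios of 9.44 (7.33 to 12.3) and 10.6 (8.37 to 13.5). PKIB, an inhibitor of protein kinase A, was at 44.0 and 92.6 CPM against 0 and 3.27 CPM. The metabotropic glutamate receptor gene GRM8, the proteoglycan gene GPC6, the cGMP kinase gene PRKG1, TAFA2, NWD2, SOX6 and RELN were also among the 15 genes with the largest ratios, and the log2 ratio was at least 2.71 in all 15, with the 10 CPM added.

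Among the genes with the largest ratios toward ADARB2 interneurons, several were all but missing from members. PDZRN3, a ubiquitin ligase, had a UMI in 0.847% of members and 64.6% of ADARB2 interneurons. NR3C2, the mineralocorticoid receptor, was at 4.89 and 5.45 CPM against 355 and 488 CPM. PLPP4 and VWC2L were at 2.67 and 0.891 CPM in members over both sets. The chemokine gene CXCL14 was at 12.2 and 22.9 CPM against 442 and 481 CPM, and the peptide gene TAC3 at 26.9 and 21.2 CPM against 372 and 287 CPM. Also in this group were NR2F2, PROX1 and CCK, the ion channel genes KCNT2 and KCNJ3, the cadherin gene CDH4, the ligand gene WNT5A, PARM1 and GALNTL6. GALNTL6 was lower without being absent, at 259 and 989 CPM against 6979 and 8150.2 CPM.

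**Figure D3:**
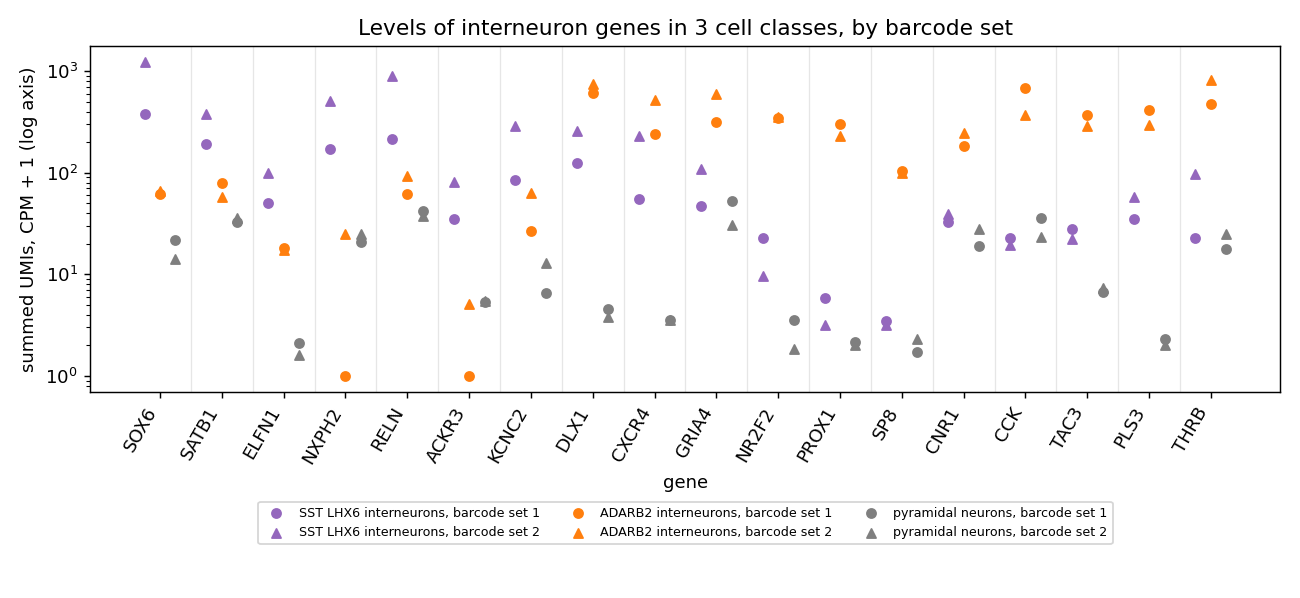
Summed UMIs of 18 genes in members, ADARB2 interneurons and pyramidal neurons (y axis, CPM + 1, log axis), with circles for barcode set 1 and triangles for barcode set 2. In both sets SOX6, SATB1, ELFN1, NXPH2, RELN, ACKR3 and KCNC2 lay higher in members than in ADARB2 interneurons, and NR2F2, PROX1, SP8, CNR1, CCK, TAC3, PLS3 and THRB lay lower.

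Receptors and guidance genes also separated the classes. CXCR4, the receptor that holds migrating interneurons in their streams, was at 53.8 and 231 CPM in members and at 242 and 520.2 CPM in ADARB2 interneurons, and was called lower. Its log2 ratio was -1.28 and came to -0.96, under the fold used, when NEUROD2 or NEUROD6 cells were left out. ACKR3, the second receptor of the same chemokine, was at 34.2 and 80.1 CPM against 0 and 4.08 CPM, a ratio of 19.2 (8.07 to 59.99). The 2 receptors of CXCL12 thus lay in opposite directions. NTRK2, the BDNF receptor, was at 85.5 and 187 CPM against 17.3 and 46.5 CPM and was higher, and SLIT1, a repulsive ligand, was at 12.2 and 12.5 CPM against 43.3 and 114 CPM and was lower. NRG1, a ligand of ERBB4, was called higher with a log2 ratio of 1.13, which was 0.87 without the NEUROD2 or NEUROD6 cells. Of 14 genes of the migration and guidance list compared, 3 were higher and 2 lower, with a median log2 ratio of -0.05.

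Of 13 glutamate receptor genes 1 was higher and 1 was lower, and the median log2 ratio was 0.45. GRIA4, an AMPA receptor subunit, was at 46.4 and 108 CPM in members and at 312 and 599 CPM in ADARB2 interneurons. GRIN3A, an NMDA receptor subunit of SST interneurons, was at 17.1 and 78.4 CPM against 0 and 16.3 CPM. GRIK3, a kainate receptor subunit, had a ratio of 5.99 (4.18 to 8.84) over both sets but was not called, because in barcode set 1 it was at 68.4 against 43.3 CPM. KCNC2, a fast potassium channel of MGE-derived interneurons, was at 83.1 and 290.0 CPM against 26.0 and 62.9 CPM and was higher. None of the 8 genes compared from the GABA receptor and chloride list was called in either direction. The same held for the 9 compared from the voltage-gated channel list, which does not hold KCNC2.

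In the adhesion and synapse list NXPH2, CDH9 and GAP43 were higher, 1 gene was lower, and 8 of 12 genes were not called. RBFOX1, a splicing factor of maturing neurons, was higher in members at 2077 and 3659 CPM against 944 and 971 CPM. THRB, a thyroid hormone receptor, was lower at 22.0 and 95.9 CPM against 476 and 815 CPM. The other 10 genes of the maturation list were not called, among them SOX4, DCX and MAPT. The classes thus differed in single genes of maturation, while the median log2 ratio of the list was 0.28.

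The second comparison was with 10699 pyramidal neurons, which had at least 3 of 7 pyramidal genes and no GAD1, GAD2, LHX6, SST, ADARB2, EOMES, MKI67 or TOP2A. Of 13713 genes compared, 212 (1.55%) were called higher in members and 45 (0.328%) lower, and the median log2 ratio was 0.07. Leaving out the members with NEUROD2 or NEUROD6 gave 304 higher and 214 lower genes, and 42 of the 45 lower genes were shared. This choice removes cells by 2 pyramidal genes, so it moves genes expressed together with them by construction. All 10 genes of the pan-interneuron list were higher, with a median log2 ratio of 3.08. DLX2 was at 70.9 and 173 CPM in members and at 1.81 and 1.17 CPM in pyramidal neurons. SLC32A1, which loads GABA into vesicles, was at 19.5 and 49.6 CPM against 0.0645 and 0.320 CPM. The 10 genes together came to 1297 CPM in members and 17.7 CPM in pyramidal neurons, although the median depth was 3426 UMIs in pyramidal neurons and 2840.5 in members.

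NRXN3 had the largest ratio after the added CPM, at 1505 and 4830 CPM in members and 52.8 and 65.6 CPM in pyramidal neurons. It was not particular to the LHX6 class, as ADARB2 interneurons had it at 4745 and 5718 CPM. CXCR4, at 2.52 CPM in pyramidal neurons, was higher still in ADARB2 interneurons, as given above. The transcription factor gene NPAS3 and the calcium channel subunit gene CACNA2D3 had ratios of 35.0 (33.0 to 37.2) and 47.8 (42.3 to 54.1) against pyramidal neurons and were not called against ADARB2 interneurons. In contrast, SOX6, PTPRM, OLFM3, BRINP3, NELL1, LHFPL3 and RELN were higher in members than in both other classes. OLFM3 was at 3.35 and 2.02 CPM in pyramidal neurons. Further genes among the 15 with the largest ratios were DLX1, DLX2 and DLX5.

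Glutamate receptor genes were again among those that differed. GRIA1 was at 432 and 1314 CPM in members and at 49.4 and 125 CPM in pyramidal neurons, a ratio of 11.8 (11.2 to 12.4). GRIK2 was at 879.6 and 2493 CPM against 97.1 and 182 CPM, and GRIK3 had a ratio of 10.7 (9.37 to 12.3). The other 10 of 13 glutamate receptor genes were not called. GABRA2, a GABA-A receptor subunit, was higher at 58.6 and 167 CPM against 15.8 and 20.0 CPM. SLC12A2, the chloride importer of young neurons, was higher with a ratio of 3.99, and the exporter gene SLC12A5 had a UMI in 0.706% of members. SYT1, a vesicle calcium sensor, was 4.26-fold higher (4.14 to 4.39).

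The genes lower in members than in pyramidal neurons were led by TAFA1, at 244 and 206 CPM in members and 899 and 1347 CPM in pyramidal neurons. Next were the adhesion gene DSCAM, at 203 and 96.9 CPM against 497 and 672 CPM, and the phosphodiesterase gene PDE1C, at 110.0 and 43.0 CPM against 298 and 284 CPM. In each of these 3 genes the classes did not overlap between the sets, but each had already been called for a 2-fold difference within each set. How many of the 13713 genes compared had levels without overlap was not counted. CSRP2, SEMA3C, DAB1, which transmits the reelin signal, ZBTB18 and SYT4 had ratios of 4.06 to 4.91 in favour of pyramidal neurons. NLGN1, a postsynaptic adhesion protein, NFIX, PLXNA4, a semaphorin receptor, and the calcium channel subunit gene CACNA2D1 were lower as well, and so were the neurofilament genes NEFL and NEFM. In ARPP21, HS3ST1 and PRSS12, the other 3 of the 15 genes with the largest ratios, members had 0.116 to 0.277 times the CPM of pyramidal neurons. Against pyramidal neurons 5 of 8 MGE genes were higher (median log2 ratio 2.70), and of 8 CGE genes RELN was higher and NFIX lower (0.17). Of the adhesion and synapse list NRXN3, CNTNAP2, NXPH2 and SYT1 were higher and NLGN1 lower among 14 genes (0.29), and of 18 migration genes CXCR4 and ACKR3 were higher and PLXNA4 lower (0.20). Among 9 genes compared from the voltage-gated channel list 1 was lower (0.14), and among 12 maturation genes 2 were lower (0.03). Pyramidal markers themselves were unequal in the barcode sets, summing over 10 genes to 1207 CPM in members of set 1 and 552 CPM in set 2, against 299 CPM in ADARB2 interneurons, 3293 CPM in pyramidal neurons and 81.0 CPM in members without NEUROD2 or NEUROD6.

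Genes that mark mature interneuron subtypes were mostly near 0. PVALB had 0 UMIs in all members, as had the chandelier cell gene PTHLH and the receptor gene VIPR2, and each 0 allows up to 1.34 CPM. TAC1, a peptide gene of parvalbumin cells, was at 0.445 CPM. The long-range SST type is marked in the adult by NOS1 and CHODL together with NPY. NOS1 had a UMI in 0.282% of members and CHODL in 0.141%, in ADARB2 interneurons in 0.212% and 0%. CALB1, HPSE and TACR1 had a UMI in 0.706%, 1.98% and 1.13% of members, and PDYN in none. ETV1 was higher in members than in ADARB2 interneurons, at 22.0 and 38.1 CPM against 0 and 8.98 CPM, but radial glia had it at 164 CPM. Of the SST subtype list 2 of 3 genes compared were higher than in ADARB2 interneurons (GRIN3A and ETV1, median log2 ratio 1.31) and none of 6 was called against pyramidal neurons (0.78). Of the PVALB and chandelier list KCNC2 alone was higher, among 3 genes compared with ADARB2 interneurons (1.00) and 4 with pyramidal neurons (0.26). CORT and CRHBP were not analysed here.

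Peptides other than SST and NPY were low as well. Of 3 peptide genes compared with ADARB2 interneurons TAC3 and CCK were lower (median log2 ratio -3.24), none of 5 was called against pyramidal neurons (-0.34), and PENK was at 63.5 and 7.08 CPM in members and not called. CRH, PDYN and NPB had 0 UMIs in members. The receptors of the 2 peptides were also close to the floor, with SSTR1, SSTR3 and SSTR4 at 0 UMIs and SSTR2 in 0.989% of members. NPY1R, which had a UMI in 6.36% of members, was at 29.4 CPM against 13.4 CPM in ADARB2 interneurons and 32.7 CPM in pyramidal neurons and was not called. No gene of the receptor list was called in either comparison.

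Markers of the lateral ganglionic eminence, which forms striatal and olfactory neurons, gave no common direction. Against ADARB2 interneurons 1 of 6 genes compared was higher (ETV1) and 1 was lower (TSHZ1), and against pyramidal neurons none of 8 was called. MEIS2, a factor of that lineage that pyramidal neurons also express, was at 357 and 162 CPM in members, 113 and 80.8 CPM in ADARB2 interneurons and 414 and 1004 CPM in pyramidal neurons. ISL1, GSX2 and SIX3 had 0 UMIs in members.

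Genes of other cell types were also counted in members. Of the 6 genes of the cycling list, all had a UMI in members and at least 2 genes were found in 29 members (4.10%), against 2.33% of ADARB2 interneurons, 0.626% of pyramidal neurons and 54.1% of radial glia. Of the 3 cycling genes compared with ADARB2 interneurons 1 was lower and 2 were not called. Their median log2 ratio was 0.82, and 1.07 without the NEUROD2 or NEUROD6 cells. BIRC5, a gene of mitosis, was higher than in pyramidal neurons, whose rule had removed cells with MKI67 or TOP2A. Radial glial genes summed to 6035 CPM in members of set 1 and 2141 CPM in set 2, against 2113 CPM in ADARB2 interneurons, 5372 CPM in pyramidal neurons and 21544 CPM in radial glia. SOX2, SLC1A3, VIM and HOPX were called higher than in pyramidal neurons, and none of the 8 radial glial genes compared was called against ADARB2 interneurons. NEUROD2 was called higher than in ADARB2 interneurons, at 176 and 66.4 CPM against 77.9 and 25.3 CPM, the only one of 7 pyramidal genes compared (median log2 ratio 0.90, and 0.02 without the NEUROD2 or NEUROD6 cells), and none of the 3 that the pyramidal rule had not used was called against pyramidal neurons (-1.15). Of the intermediate progenitor list neither the 1 gene compared with ADARB2 interneurons nor the 3 compared with pyramidal neurons were called. Of the glial list no gene had enough UMIs for the first comparison, and none of 3 was called in the second. A few members carried most UMIs of the non-neural lists. A single member held 111 of the 119 red blood cell UMIs, and 6 members had at least 5 UMIs of microglial genes and 6 of endothelial and mural genes. C1QC and CLDN5, called higher against both classes, were found in 8 and 7 members, and without the members that had NEUROD2 or NEUROD6 CLDN5 had a log2 ratio of 0.94 against pyramidal neurons in place of 1.78. With at least 4 rule genes per member the log2 ratios against pyramidal neurons were 0.48 for C1QC and 0.32 for CLDN5. With LHX6 required that of C1QC was 0.04, whereas that of CLDN5 was 1.84 and did not fall. These were the only genes called from the microglial, endothelial and red blood cell lists. Their part in other results was not tested.

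Members were then grouped by SST UMIs alone, to describe which other genes went with SST. As the rule needs LHX6 or SST, all members with 0 SST UMIs had LHX6, against 58.8% of those with 20 or more, so the groups also differ in how their cells entered the rule. There were 152 members with 0, 247 with 1 to 4, 207 with 5 to 19 and 102 with 20 or more SST UMIs. The top group had 19 cells in barcode set 1 and 83 in set 2, and the median depth was 2787, 2681, 2866 and 3132.5 UMIs. Of 6682 genes, 76 (1.14%) were called higher in the top group than in the group with 0, and 112 (1.68%) lower, with a median log2 ratio of -0.02. Over all 4 groups, 52 of the higher genes rose and 49 of the lower genes fell at every step. Without the NEUROD2 or NEUROD6 cells 79 genes were higher and 86 lower, of which 42 and 48 were shared with the counts above. With LHX6 required in all groups the counts were 61 and 78, of which 42 and 42 were shared. The share of cells with NEUROD2 or NEUROD6 was 26.3%, 35.6%, 26.1% and 25.5%, highest in the group with 1 to 4 SST UMIs.

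The genes that were higher with SST included adhesion, signalling and receptor genes. PTPRT, a receptor tyrosine phosphatase, was at 52.6, 213, 263 and 758 CPM from the lowest to the highest group. In barcode set 1 it went from 15.8 CPM in the lowest group to 330.0 CPM in the highest, and in set 2 from 58.2 to 843 CPM, so that both sets gave the same direction. PDE1A, a calcium-dependent phosphodiesterase, was at 29.4, 63.4, 99.6 and 338 CPM, and PKIB at 27.3, 40.6, 93.4 and 249.5 CPM. RELN was at 313, 529, 1045 and 1464 CPM. After thinning each cell to 2000 UMIs, the share of cells with PTPRT was 4.44%, 15.4%, 21.1% and 55.8%, and that with RELN was 28.1%, 30.8%, 69.0% and 74.5%. Hence these genes also separated the groups at equal depth. GRIN3A, PTPRM, PRKG1, TRPC6, PLXDC2 and PIP5K1B rose at every step, and the first 3 of these were also higher than in ADARB2 interneurons. NPY, a gene of the rule, was at 52.6, 190.2, 725 and 4884 CPM.

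Of 6 radial glial genes compared by SST level 4 were lower, none was higher and the median log2 ratio was -1.76, and of 3 cycling genes 1 was lower (-0.88). SOX2 lay in the other direction, at 208, 161, 216 and 313 CPM, and TOP2A was at 42.1, 71.0, 27.6 and 18.3 CPM, and neither was called. HOPX and VIM, genes of radial glia, were at 88.3 and 164 CPM in members without SST. In the top group HOPX had 0 UMIs, which allows up to 9.13 CPM, and VIM was at 24.3 CPM. UBE2C, SPC24, PCLAF and HMGB2, genes of DNA replication and mitosis, were at 65.2, 44.2, 52.6 and 181 CPM without SST and at 0, 0, 3.04 and 24.3 CPM in the top group. Most of these levels came from few cells, as the thinned share of cells with HOPX was 4.65% and that with HMGB2 10.9% in members without SST. HOPX, UBE2C, HMGB2 and VIM were as high or higher in the group with 1 to 4 SST UMIs and did not fall at every step. PON2 and GPR176 fell from 90.4 and 69.4 CPM to 0 and 3.04 CPM. When cells were thinned to 2000 UMIs, 51 genes were called lower in place of 112.

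**Figure D4:**
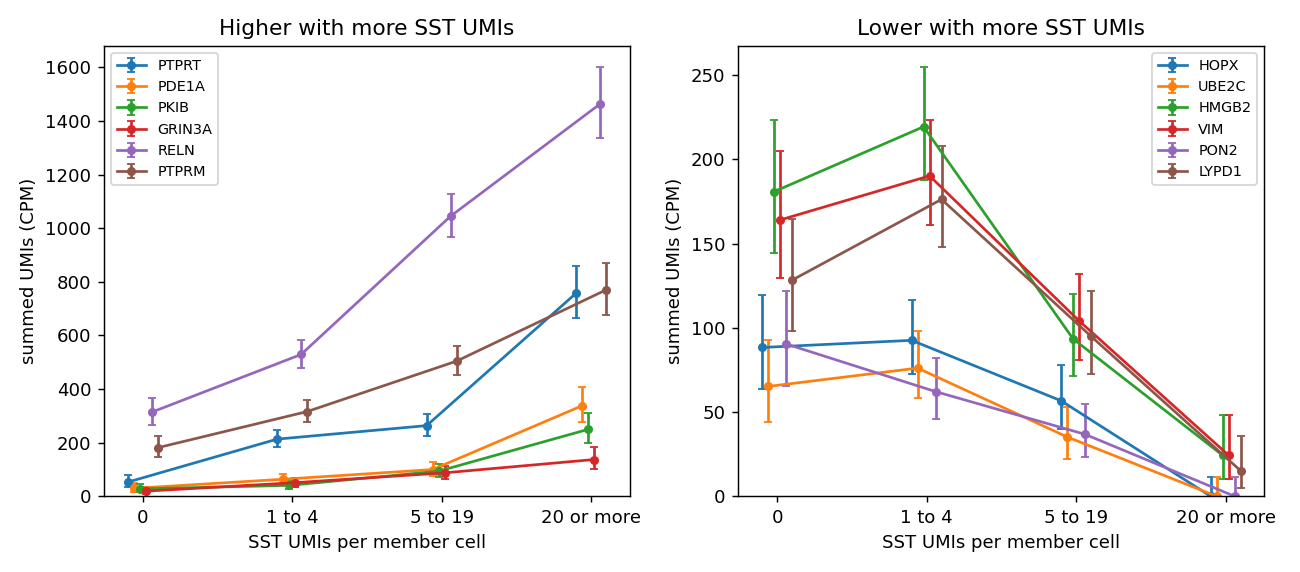
Level of 6 genes that were higher and 6 that were lower with SST (y axis, summed UMIs in CPM, with exact Poisson 95% intervals as bars), in members grouped by SST UMIs (x axis). RELN went from 313 to 1464 CPM over the 4 groups, while HMGB2 was at 181 and 219 CPM in the 2 groups with fewest SST UMIs and at 24.3 CPM in the group with most.

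No gene of the pan-interneuron list was called by SST level (10 compared, median log2 ratio -0.05). DLX1 was at 288, 176, 241 and 271 CPM, DLX5 at 187, 132, 173 and 179.5 CPM, and NXPH2 at 564, 344, 441 and 526 CPM over the same 4 groups. Each was lowest in the group with 1 to 4 SST UMIs. SOX6 was at 917, 802, 1276 and 1622 CPM and SATB1 at 231, 224, 463 and 536 CPM, ratios of 1.77 (1.56 to 2.01) and 2.32 (1.81 to 2.97) between the top group and the group with 0. Both ratios were above 1 in each barcode set, but neither gene was called, because the fold did not reach 2 overall or in each set.

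Splitting members by SST and NPY gave 171 cells with both (24.2%), 385 with SST only (54.4%), 11 with NPY only (1.55%) and 141 with neither (19.9%). PDE1A had a UMI in 25.7% (19.4 to 33.0%) of members with both peptides and in 9.09% (6.41 to 12.4%) of those with SST only. PTPRT had a UMI in 45.0% and 30.9% of them, and RELN in 52.0% (44.3 to 59.7%) and 69.1% (64.2 to 73.7%). PDE1A and PTPRT were thus found more widely, and RELN less widely, in members with both peptides. These groups also differed in SST itself, with medians of 11 and 5 SST UMIs, and in NEUROD2 or NEUROD6, which were found in 37.4% and 27.0% of cells. NOS1 had a UMI in 0 of the 171 members with both peptides, which allows a share of up to 1.75% with a UMI, and CHODL in 1 of them, with 4 UMIs. A group of SST and NPY cells with NOS1 or CHODL was thus not detectable at this depth, which does not show that none expressed them.

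The same rule was applied to the mouse cells, in a separate table and with both genotypes together. It found 133 of 17765 cells, or 0.749% (0.627 to 0.887%), with a median of 3370.0 UMIs. Mouse cells had been sorted after a label applied at the ventricle and were of another stage, so the species are given side by side only. Lhx6 had a UMI in 92.5% of these mouse cells and Sst in 25.6%, whereas in ferret members the shares were 57.9% and 78.5%. After thinning to 2000 UMIs, the interneuron genes Dlx1 and Dlx5 were found in 40.7% and 32.0% of the mouse cells, and in 36.5% and 29.1% of the ferret members. Other genes high in ferret members had other shares, with OLFM3 at 0.370% in mouse and 50.8% in ferret, BRINP3 at 3.22% and 74.7%, RELN at 3.52% and 49.0%, and GRIK2 at 8.42% and 85.2%. ACKR3 had the reverse order, at 36.0% in mouse and 13.1% in ferret. Annotation, capture, stage and species cannot be told apart in these values.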

How the data were processed

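The authors processed droplet libraries with Cell Ranger. The deposited values are raw UMI counts, in 1 table for ferret (22008 genes) and 1 for mouse (17170 genes). The Cell Ranger version and the ferret genome build and annotation are not given in the sources used here. The submitters' processing notes also list StringTie and Seurat 3, with no role. Whether introns were counted is not known, and 6588 ferret genes have no symbol, which were tested but not named. The authors' limits were 750 to 5000 genes and less than 10% mitochondrial UMIs per cell.

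Total UMIs were 30574227 in barcode set 1 (10190 cells) and 56361053 in barcode set 2 (13292 cells), with medians of 2555 and 3514 per cell over all of these cells. UMIs were summed per class and expressed as CPM. Ratios of CPM were given with exact conditional binomial intervals, levels with Poisson intervals and shares with Clopper-Pearson intervals (all 95%), and a 0 was given the limit of 3 counts. Radial glia had at least 4 of 7 radial glial genes and no NEUROD2, NEUROD6, GAD1, GAD2, LHX6, SST or ADARB2. Shares at equal depth were expected values for 2000 UMIs drawn without replacement, over the 549 members, 369 ADARB2 interneurons and 9380 pyramidal neurons that reached it. With 1 embryo there were no replicates and no tests, and called genes are past a fold of 2 in both barcode sets, which need not be independent samples. Doublets were not removed, since Scrublet (scanpy 1.11.5) marked 1 and 2 cells of the sets.

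Named genes were those of 23 lists (227 genes, 14 of which are not in the ferret table and were not analysed here), the 15 genes with the largest ratios in each direction and comparison, and the leading genes by SST level. The members and lists were chosen with earlier results of these data known. The calculation was tested on simulated data. Alternatives were other filters on cells and genes, other rules for members, 1 CPM in place of 10, mean CPM per cell, thinning, and each barcode set alone. Software was python 3.11.15, numpy 2.4.6, scipy 1.17.1 and pandas 2.3.3. Results for 5 genes are not reported here.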

Additional observations from a re-analysis of the deposited data

Results flagged for a closer look

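The mouse table, which no comparison of the ferret members used, also held cells that met the rule. There were 133 of them, a count above the limit that a count of 0 allows, and they are described at the end of the report. In these mouse cells Neurod6 had a UMI in 17.3% and Neurod2 in 12.0%.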

How the results depend on the processing

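No paired analysis was possible because the barcodes carry no sample name and there is 1 ferret embryo. The 708 members became 410 when LHX6 was required and were 126 in barcode set 1 alone, and the other rules gave 500 to 807. Against ADARB2 interneurons, adding 1 CPM gave 184 higher genes and barcode set 2 alone gave 237, in place of 116, and the count of lower genes stayed within 1.5 times of 167 under every alternative. Against pyramidal neurons the 212 higher genes became 512 with 1 CPM added, 401 in barcode set 2 alone and 325 when LHX6 was required and NEUROD2 or NEUROD6 cells were left out, an alternative chosen after seeing the data. The 45 lower genes became 97 with at least 4 of the 8 genes, 117 with LHX6 required, 214 without NEUROD2 or NEUROD6 cells, 72 with the mean CPM per cell, 257 with 1 CPM added, 71 after thinning, 107 and 259 in barcode sets 1 and 2 alone, and 276 under the added alternative. With 1 CPM added every original call of both comparisons was kept, which had to follow, since adding less CPM only moves each ratio further from 1. Barcode set 1 alone kept 40 of the 116 and 49 of the 167 calls against ADARB2 interneurons. Across SST levels it kept 11 of the 76 and 17 of the 112. Each original call already needed the fold in that set, so the others dropped out only because they had fewer than 50 UMIs there. By SST level, barcode set 2 alone gave 178 higher and 202 lower genes and thinning gave 51 lower genes, in place of 76 and 112. The share of SST and NPY cells with NOS1 or CHODL, 0.585%, was 0% with LHX6 required and in barcode set 1 alone. CLDN5 turned from 2.49 to -0.13 against ADARB2 interneurons and from 1.78 to -0.81 against pyramidal neurons, and C1QC from 1.81 to -0.35 against pyramidal neurons, under the added alternative (log2 ratios). The causes of the other changes were not tested. At a median of 2840.5 UMIs per member, a cell without a UMI of LHX6, GAD1 or GAD2 is not shown to lack the gene.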
